A study of Mus musculus with 10 samples.

Results

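The Myc, Max and Mxd network was described through 10 mouse genes: *Myc*, *Mycn*, *Mycl*, *Max*, *Mxd1*, *Mxd3*, *Mxd4*, *Mxi1*, *Mga* and *Mnt*. They were taken by symbol from a count table of 56750 features, each matched 1 row, and all 10 were among the 24743 genes that passed the filter on low counts. Bulk RNA-seq was made from sarcomas of 2 mouse models. In the dFLEx group were 3 tumors (170019, 170024 and 170025) with the labelled genotype dFLEx CDS +/-, in which CIC::DUX4 is expressed from a construct targeted to Rosa26 once both Cre and FLP have acted. These tumors grew in hind limb muscle after electroporation of plasmids that express both recombinases from the CAG promoter. In the KP group were 2 tumors (3800 and 3802) of the KP model, whose labelled genotype includes p53fl/fl, so that recombination removes p53. The labels give no age, treatment or time for either group, and how the KP tumors were induced is not given in the sources used here. The groups therefore differ in every allele of their genotypes, and the effect of CIC::DUX4 cannot be told apart from that of the KP alleles or of the tumor's origin.

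MYC, N-MYC and L-MYC are basic helix-loop-helix leucine zipper transcription factors that bind E-box DNA as heterodimers with MAX and raise transcription of genes for growth, ribosome production and cell division. MXD proteins, MNT and MGA compete for the same partner and bind similar sites, where MXD and MNT recruit SIN3 and histone deacetylase corepressors and MGA serves a variant Polycomb complex. In sarcomas and other cancers the balance between the activating and the opposing members is often altered through copy number, transcription or protein stability.

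Duplicate libraries were prepared from the RNA of a tumor and were summed here, and the tumor was the unit of replication. Tumor totals ran from 20503474 counts in KP tumor 3802, which had 1 library, to 82138251 in dFLEx tumor 170025. CIC::DUX4 contig reads numbered 4238, 11623 and 33600 in dFLEx tumors 170019, 170024 and 170025, 0 in KP tumor 3800, where a limit of 3 counts corresponds to 0.0428 CPM, read counts divided by library size, and 6 in KP tumor 3802. Signal over 1969 olfactory and vomeronasal receptor genes, which muscle and sarcoma cells should not transcribe, was 0.0238, 0.0149 and 0.00276 CPM per kilobase in dFLEx tumors 170019, 170024 and 170025, against 0.00624 and 0.106 in KP tumors 3800 and 3802. KP tumor 3802 thus stood apart with the highest background and the lowest total. Summed levels of 8 myocyte and 5 endothelial marker genes were above both KP tumors in every dFLEx tumor, and those of 6 macrophage and 5 T cell marker genes were below, both with TMM (trimmed mean of M-values) scaling, used throughout unless stated, and on library totals, with no listed marker at 0 in any tumor. Single markers were less uniform: 6 of 8 myocyte and 2 of 5 endothelial genes were above in every dFLEx tumor, 4 of 6 macrophage and 2 of 5 T cell genes were below, and the others overlapped. The sum of 5 fibroblast markers was higher in every dFLEx tumor with TMM scaling, at 2537 CPM or more against at most 2427 CPM. On library totals this sum overlapped, and of the single fibroblast genes with TMM scaling 2 were above in every dFLEx tumor and 3 overlapped. Myocyte markers summed to between 7961 and 28702 CPM in dFLEx and to 1578 and 4463 CPM in KP, and macrophage markers to between 920 and 1097 CPM in dFLEx and to 2241 and 4626 CPM in KP. The part of this cell composition in the results was not tested, and in bulk tumors fewer cells of a type and less RNA per cell cannot be told apart.

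To ask whether the network differs between the models, levels were compared with edgeR's quasi-likelihood test, in which log2 fold changes are dFLEx against KP, SE is the standard error, and Benjamini-Hochberg adjustment runs over all genes tested. No member passed an adjusted p of 0.05 in edgeR (0 of 10), where 0.182% of all genes did. *Mycn* was the 1 member under an unadjusted p of 0.05, beside 10.6% of all genes, and was also the 1 member called by DESeq2 on the same tumor sums, which called 6.07% of the genes it tested. Every dFLEx tumor exceeded both KP tumors in 4 of 10 members (*Mycn*, *Mycl*, *Mxd3* and *Mxd4*), beside 13.7% of all genes, and no member was lower in every dFLEx tumor, beside 11.7% of all genes. The separation depended on the scaling: on library totals in place of TMM, *Mycl* and *Mxd4* overlapped, *Mycn* and *Mxd3* remained above (2 of 10, beside 10.0% of all genes), and *Mxd1* was lower in every dFLEx tumor (1 of 10, beside 15.5%). The members' median log2 fold change was 0.48, and that of all genes tested was -0.18. These shares are descriptions of a small set and were not tested against other genes.

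**Figure D1:**
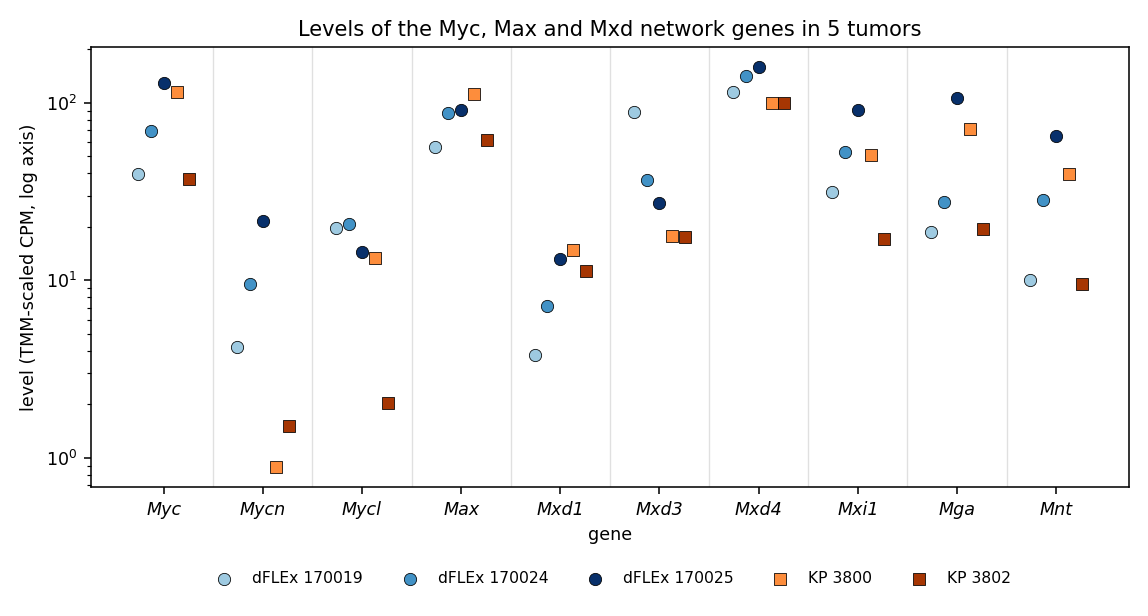
Level of each network gene (vertical axis, TMM-scaled CPM, log scale) in the 3 dFLEx tumors (circles) and the 2 KP tumors (squares), 1 point per tumor. *Mycn* shows the widest separation, from 4.20 to 21.5 CPM in dFLEx and from 0.887 to 1.50 CPM in KP, while the groups overlap in *Myc*, *Max*, *Mxd1*, *Mxi1*, *Mga* and *Mnt*.

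*Mycn* (ENSMUSG00000037169, chr12:12986094-12991915 on the minus strand, GRCm39) encodes N-MYC, the family member best known from neural and embryonic tissue and from neuroblastoma. Its level was 4.20, 9.48 and 21.5 CPM in dFLEx tumors 170019, 170024 and 170025, against 0.887 and 1.50 CPM in KP tumors 3800 and 3802. All dFLEx tumors were above both KP tumors, and the lowest dFLEx value was 2.80 times the highest KP value. The gap was narrower on library totals, at 3.56 CPM in dFLEx tumor 170019 against 1.80 CPM in KP tumor 3802. The group means were 11.7 ± 8.84 CPM (SD, n = 3) in dFLEx and 1.20 ± 0.436 CPM (SD, n = 2) in KP. The log2 fold change was 3.30 (SE 0.92), which did not pass in edgeR with an adjusted p of 0.220. DESeq2 on the same sums gave a log2 fold change of 3.21 with an adjusted p of 0.00605, and edgeR itself called *Mycn* when no filter on low counts was applied, with an adjusted p of 0.0229. With limma-voom on the 9 libraries the adjusted p was 0.384, so the call depended on both the tool and the filter. Leaving out any 1 tumor kept the log2 fold change between 2.50, without 170025, and 3.74, without 3802. The spread within dFLEx was 5.10-fold.

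Low counts limited the KP values of *Mycn*. In KP tumor 3800 the duplicates held 16 and 50 reads, or 0.549 and 1.22 CPM of the library total, with Wilson 95% intervals of 0.338 to 0.891 and of 0.926 to 1.61. Since both mates of a fragment enter the count, these intervals are narrower than the true counting error, and no difference between the duplicates is read from them. The 37 reads of KP tumor 3802 compare with a receptor-gene background equivalent to 0.350 CPM over the length of *Mycn*, and the background in the other tumors was between 0.00909 and 0.0784 CPM. After this background was subtracted from every gene, the log2 fold change was 3.43 with an edgeR adjusted p of 0.183.

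Promoter sequences were examined for *Mycn*, which had the largest difference, for *Mxi1*, the 1 member with a CIC octamer, and for *Max*, whose E-box lies across the annotated start. RefSeq promoters (GRCm38.p6, 250 bases before to 50 after the start) were matched by symbol for 9 of the 10 members, all but *Myc*, in 11 entries. CIC octamers (TGAATGAA, TGAATGGA, TCAATGAA or TCAATGGA, both strands) are the sites through which CIC, and the DNA-binding part of CIC::DUX4, contacts DNA, and CACGTG is the canonical E-box, which reads the same on both strands. Capitals mark a match, each sequence runs 5′ to 3′ on the gene's own strand, and *Mycn* (chr12:12941787-12942086, minus strand) held neither motif. The *Mxi1* entry (chr19:53310256-53310555, plus strand) held 1 octamer, and the *Max* entry (chr12:76962199-76962498, minus strand) held 1 E-box.
Mycn promoter: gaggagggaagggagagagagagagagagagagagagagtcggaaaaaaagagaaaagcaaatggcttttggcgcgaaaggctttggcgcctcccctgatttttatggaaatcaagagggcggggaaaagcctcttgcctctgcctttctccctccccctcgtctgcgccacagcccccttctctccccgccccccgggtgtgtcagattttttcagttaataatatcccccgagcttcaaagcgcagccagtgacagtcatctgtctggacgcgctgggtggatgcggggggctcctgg
Mxi1 promoter: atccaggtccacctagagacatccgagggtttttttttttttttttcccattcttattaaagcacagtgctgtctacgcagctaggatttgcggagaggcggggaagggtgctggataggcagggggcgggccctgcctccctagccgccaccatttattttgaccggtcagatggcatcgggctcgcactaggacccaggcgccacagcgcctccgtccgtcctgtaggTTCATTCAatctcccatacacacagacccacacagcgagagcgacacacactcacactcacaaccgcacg
Max promoter: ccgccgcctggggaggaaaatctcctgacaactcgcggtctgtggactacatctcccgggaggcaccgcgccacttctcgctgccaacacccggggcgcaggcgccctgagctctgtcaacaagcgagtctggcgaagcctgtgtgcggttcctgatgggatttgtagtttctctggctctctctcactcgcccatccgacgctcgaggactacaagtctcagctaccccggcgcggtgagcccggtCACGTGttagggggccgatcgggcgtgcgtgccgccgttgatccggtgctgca

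The octamer of *Mxi1* was TTCATTCA, the reverse complement of TGAATGAA, and began 20 bases before the start. Among members, 1 of 9 had an octamer in any entry and 3 of 9 had an E-box (*Max*, *Mnt* and *Mxd4*). Counted by entry, 1 of 11 held an octamer and 3 of 11 an E-box. Over all 32851 promoter entries of this length 3.84% held an octamer and 7.15% held an E-box. The *Mnt* E-box began 123 bases and the *Mxd4* E-box 219 bases before the start. These are letter matches within a short window, and binding was not measured here.

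*Myc* (ENSMUSG00000022346) encodes the broadly expressed founding member of the family. Its level was 39.9, 69.8 and 130.0 CPM in dFLEx tumors 170019, 170024 and 170025, against 115 and 37.3 CPM in KP tumors 3800 and 3802. Each group had a high and a low tumor, and the groups overlapped almost completely. The spread was 3.26-fold within dFLEx and 3.08-fold within KP, against a fitted difference of 1.05-fold. Its log2 fold change was 0.07 (SE 0.74), with an edgeR adjusted p of 0.989. It ran from -0.50 without KP tumor 3802 to 1.27 without KP tumor 3800, and was -0.15 when library totals replaced TMM scaling, so no direction can be given. *Pvt1*, the noncoding RNA gene next to *Myc*, was at 22.2, 12.7 and 12.6 CPM in the dFLEx tumors and at 10.7 and 15.8 CPM in the KP tumors, with an overlap and a log2 fold change of 0.26 (SE 0.61).

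*Mycl* (ENSMUSG00000028654, chr4:122889445-122896278, plus strand) encodes L-MYC, first found amplified in small cell lung cancer. It stood at 19.7, 20.6 and 14.4 CPM in dFLEx tumors 170019, 170024 and 170025, against 13.3 and 2.03 CPM in KP tumors 3800 and 3802. With TMM scaling the dFLEx tumors were all higher, but the lowest of them exceeded KP tumor 3800 by only 1.08-fold, and on library totals it was below it (13.9 against 14.1 CPM). KP tumor 3802 alone was far below the rest. Its value rested on 50 reads, beside a receptor-gene background equivalent to 0.429 CPM over the length of *Mycl*. The log2 fold change of 1.24 (SE 0.84) had an edgeR adjusted p of 0.771, and it was 0.47 without KP tumor 3802 and 3.32 without KP tumor 3800. A single KP tumor thus set the size of the difference.

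Per length, *Myc* made up most of the family in every tumor. Levels in CPM per kilobase, which allow genes to be compared, summed over *Myc*, *Mycn* and *Mycl* to 20.8, 33.7 and 57.9 in dFLEx tumors 170019, 170024 and 170025, against 45.7 and 14.7 in KP tumors 3800 and 3802. *Myc* accounted for 70.5%, 76.3% and 82.6% of that sum in the dFLEx tumors and for 92.2% and 93.5% in the KP tumors. The share of *Mycn* was 6.12%, 8.54% and 11.2% in dFLEx and 0.588% and 3.11% in KP, so its share in the lowest dFLEx tumor was above that in the highest KP tumor. *Mycl* gave 23.4%, 15.2% and 6.15% in dFLEx and 7.21% and 3.43% in KP, with an overlap. With 3 tumors against 2, an exact permutation test over tumors, with a two-sided p taken as double the smaller tail, cannot go below 0.2, and none is given for these shares.

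**Figure D2:**
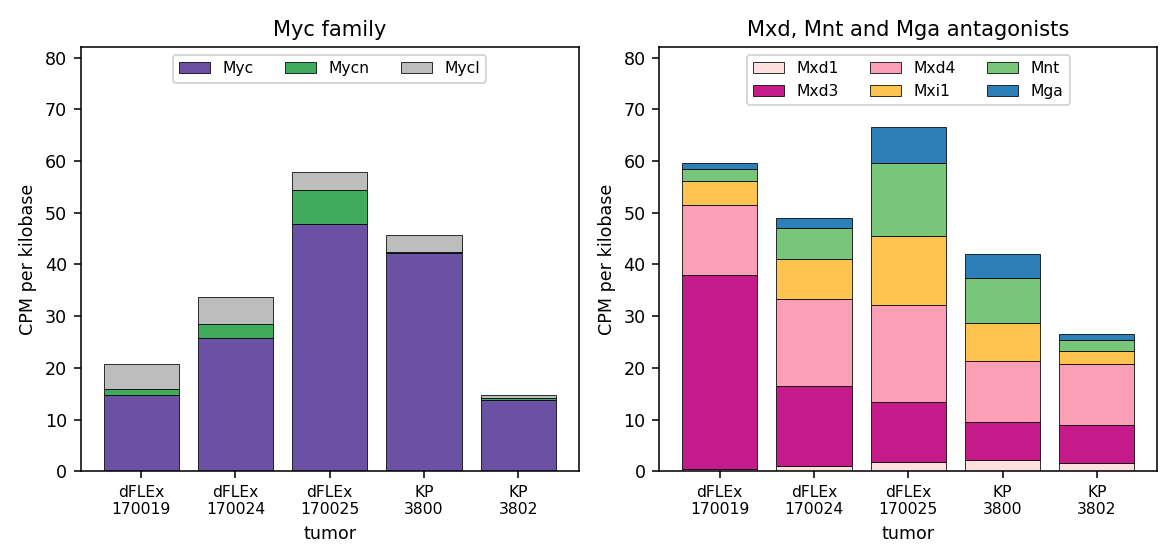
Stacked levels in CPM per kilobase (vertical axis) for the Myc family (left) and for the Mxd, Mnt and Mga antagonists (right) in each of the 5 tumors; each bar is 1 tumor. *Mycn* takes 6.12% to 11.2% of the family sum in dFLEx tumors and at most 3.11% in KP tumors, and *Mxd3* takes 62.9% of the antagonist sum in dFLEx tumor 170019.

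*Max* (ENSMUSG00000059436, chr12:76984043-77008975, minus strand) encodes the obligate dimer partner of both arms. Its level was 56.5, 87.1 and 91.2 CPM in dFLEx tumors 170019, 170024 and 170025, against 112 and 61.4 CPM in KP tumors 3800 and 3802. The groups overlapped, and the whole range over 5 tumors was 1.99-fold, the narrowest of the members after *Mxd4* at 1.59-fold. In edgeR the log2 fold change was -0.15 (SE 0.57), with an edgeR adjusted p of 0.973, and ran from -0.50 to 0.52 with a tumor left out. Per kilobase, the Myc family sum was 1.33, 1.39 and 2.28 times the level of *Max* in the dFLEx tumors, and 1.47 and 0.859 times in the KP tumors.

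*Mxd3* (ENSMUSG00000021485, chr13:55472981-55477636, minus strand) encodes the MXD protein that is expressed in dividing cells, unlike other MXD members, which rise with differentiation. It was at 88.8, 36.6 and 27.4 CPM in dFLEx tumors 170019, 170024 and 170025, against 17.8 and 17.5 CPM in KP tumors 3800 and 3802. The dFLEx tumors were all higher, by at least 1.54-fold, and the KP tumors were nearly equal. The gap was narrower on library totals, at 26.5 CPM in dFLEx tumor 170025 against 21.0 CPM in KP tumor 3802. The difference on the log2 scale was 1.53 (SE 0.71), with an edgeR adjusted p of 0.527. It was 0.81 without dFLEx tumor 170019 and between 1.54 and 1.82 with any other tumor left out. Of its counted length, 4.43% overlaps *Prelid1* on the opposite strand, and the counting ignored strand.

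*Mxd4* (ENSMUSG00000037235, chr5:34331227-34345064, minus strand) was the steadiest member. Its level was 115, 142 and 159 CPM in dFLEx tumors 170019, 170024 and 170025, against 99.7 CPM in both KP tumors. All dFLEx tumors were above with TMM scaling, with a lowest value 1.15 times the KP level, but dFLEx tumor 170019 was below both KP tumors on library totals (97.5 against 106 and 119.6 CPM). The log2 fold change of 0.48 (SE 0.52) had an edgeR adjusted p of 0.888. Its counted length overlaps *Mxd4os1* on the opposite strand over 6.06%.

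*Mxd1* (ENSMUSG00000001156, chr6:86624024-86646143, minus strand), the MXD gene linked to terminal differentiation, was the 1 member besides *Max* with a negative log2 fold change. It was at 3.78, 7.13 and 13.2 CPM in dFLEx tumors 170019, 170024 and 170025, against 14.9 and 11.3 CPM in KP tumors 3800 and 3802. Only dFLEx tumor 170025 reached into the KP range. Its log2 fold change was -0.70 (SE 0.69), with an edgeR adjusted p of 0.871, and stayed negative with each tumor left out, between -1.27 and -0.31.

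*Mxi1* (ENSMUSG00000025025, chr19:53298949-53364241, plus strand), which encodes the MXD family protein also called MXD2, was at 31.5, 53.0 and 91.4 CPM in dFLEx tumors 170019, 170024 and 170025. In KP tumors 3800 and 3802 it was at 50.5 and 17.2 CPM. The groups overlapped, with KP tumor 3800 between the lower dFLEx tumors. The difference was 0.79 on the log2 scale (SE 0.74), with an edgeR adjusted p of 0.864, and it ranged from 0.23 without KP tumor 3802 to 1.94 without KP tumor 3800.

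*Mnt* (ENSMUSG00000000282, chr11:74721746-74736551, plus strand) encodes a ubiquitous MAX-binding repressor. It was at 10.0 CPM in dFLEx tumor 170019, 28.4 in 170024 and 65.0 in 170025, against 39.6 and 9.59 CPM in KP tumors 3800 and 3802. Its range of 6.78-fold over the 5 tumors ran through both groups. On the log2 scale the difference was 0.49 (SE 0.93), with an edgeR adjusted p of 0.940, and turned to -0.35 without dFLEx tumor 170025 and to -0.18 without KP tumor 3802.

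*Mga* (ENSMUSG00000033943, chr2:119727709-119800062, plus strand), the longest of the 10 at 15340 counted bases, encodes a large protein with both a T-box and a MAX-binding domain. Its level was 18.8, 27.5 and 107 CPM in dFLEx tumors 170019, 170024 and 170025, against 71.4 and 19.4 CPM in KP tumors 3800 and 3802. The highest and the lowest value were both in dFLEx. Its log2 fold change was 0.17 (SE 0.92), with an edgeR adjusted p of 0.982, and ran from -0.97 without dFLEx tumor 170025 to 1.57 without KP tumor 3800. Background over its length was equivalent to 1.63 CPM in KP tumor 3802.

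**Figure D3:**
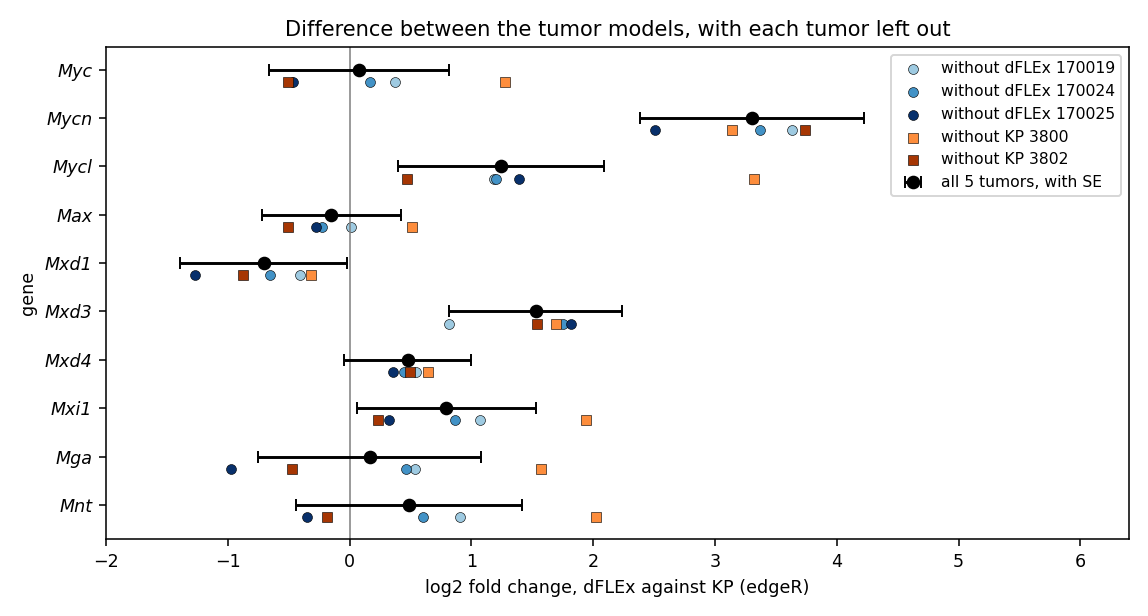
Log2 fold change of each network gene, dFLEx against KP (horizontal axis), from edgeR on 5 tumors (black, bars are SE), with the value after each tumor was left out below it (colored points). *Mycn* stays between 2.50 and 3.74, while *Myc*, *Max*, *Mga* and *Mnt* lie on both sides of 0.

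Differences between tumors of the same model ran through several members together. In 8 of 10 members the dFLEx tumors were ordered 170019, 170024, 170025 from low to high (all but *Mycl* and *Mxd3*), an order seen in 29.0% of all genes tested. *Mxd3* had the opposite order, as did 32.0% of genes. KP tumor 3800 was above KP tumor 3802 in 9 of 10 members, *Mycn* being the exception and *Mxd4* nearly equal, beside 46.3% of genes, and in 7 of 10 on library totals, beside 43.5% of genes. Relative to its own mean over the tumors on the log2(CPM + 0.5) scale, *Mnt* lay at -1.20 in dFLEx tumor 170019 and -1.25 in KP tumor 3802, and at 1.45 in dFLEx tumor 170025 and 0.74 in KP tumor 3800. *Mga* gave -0.99 and -0.94 in the first pair and 1.48 and 0.91 in the second. The CIC::DUX4 contig had the same dFLEx order, at 89.3, 192 and 409 CPM of the tumor total, as did the total counts, and the receptor-gene background had the reverse order. KP tumor 3800 likewise had more total counts than KP tumor 3802, at 70120584 from 2 libraries against 20503474 from 1 library. Its background was lower, at 0.00624 against 0.106 CPM per kilobase, and the contig was at 0 in 3800 and 0.293 CPM in 3802. Proliferation markers, 6 genes that included *Mki67*, summed to 650, 577 and 944 CPM in the dFLEx tumors and to 960 and 295 CPM in the KP tumors. The part of background, depth, transgene level or proliferation in this order was not tested.

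**Figure D4:**
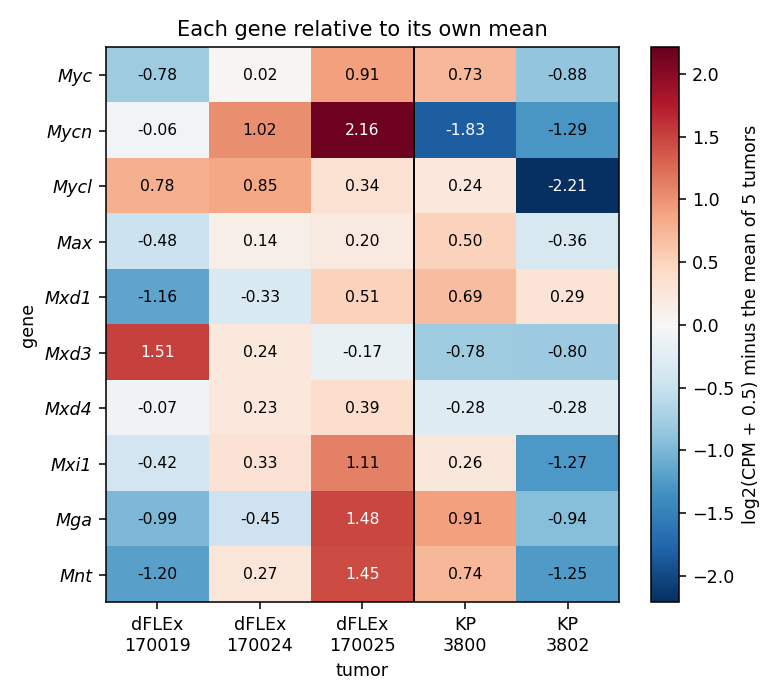
Each network gene (rows) in each tumor (columns) as log2(CPM + 0.5) minus the gene's mean over the 5 tumors, with the value printed in each cell and the vertical line between dFLEx and KP. *Myc*, *Mga* and *Mnt* are above their means in dFLEx tumor 170025 and KP tumor 3800 and below them in dFLEx tumor 170019 and KP tumor 3802, whereas *Mycn* is at 2.16 in 170025 and at -1.83 in 3800.

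In mean CPM per kilobase, the order in dFLEx was *Myc* (29.4), *Max* (21.8), *Mxd3* (21.5), *Mxd4* (16.3), *Mxi1* (8.60), *Mnt* (7.45), *Mycl* (4.51), *Mycn* (3.55), *Mga* (3.32) and *Mxd1* (1.13). In KP the means per kilobase ran from *Myc* (27.9) through *Max* (24.1), *Mxd4* (11.8), *Mxd3* (7.45), *Mnt* (5.31), *Mxi1* (4.96), *Mga* (2.96), *Mycl* (1.90) and *Mxd1* (1.85) to *Mycn* (0.363). Neighbours in the dFLEx order had overlapping ranges over the tumors, except *Mxd4* and *Mxi1*, and in KP the ranges overlapped except between *Max* and *Mxd4*, *Mxd4* and *Mxd3*, and *Mxd1* and *Mycn*. *Mycn* moved from the eighth place in dFLEx to the tenth in KP, and it was the eighth in each dFLEx tumor and the tenth in each KP tumor. *Mxd3* ranged from the first place in dFLEx tumor 170019 to the sixth in 170025. Opposing members summed to 59.6, 48.9 and 66.5 CPM per kilobase in the dFLEx tumors and to 42.0 and 26.6 in the KP tumors, higher in every dFLEx tumor. The higher sum was not shared by all of them, since *Mxd1*, *Mxi1*, *Mnt* and *Mga* overlapped between the groups. *Mxd3* gave 62.9%, 31.6% and 17.4% of the sum in dFLEx tumors 170019, 170024 and 170025. In KP tumors 3800 and 3802 it gave 17.9% and 27.8%. The Myc family sum was 0.350, 0.689 and 0.870 of the opposing sum in dFLEx and 1.09 and 0.552 of it in KP, with an overlap. RNA levels of this kind do not give the amounts of protein or of dimers.

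Genes with the pattern most like that of each family member were ranked by the root mean square (RMS) difference of centered log2(CPM + 0.5) over the 5 tumors, among genes whose mean level was 10 CPM or more. For *Mycn* they were *Rab27a* (RMS 0.12), *Unc13a* (0.17) and *Plin4* (0.20), of 10023 genes. *Rab27a*, a small GTPase of vesicle secretion, was at 16.2, 29.5 and 60.2 CPM in dFLEx and at 3.67 and 5.93 CPM in KP. *Myc* was most like *Inpp4a* (RMS 0.027), *Zdhhc3* (0.033) and *Rnf214* (0.053), and *Mycl* was most like *Bphl* (0.19), *Sdr39u1* (0.21) and *Apoo* (0.21). Within the network, *Myc* was nearest to *Mga* (RMS 0.36), *Mxi1* (0.36) and *Mnt* (0.36), and it was farther from *Mycn* (1.40) than from any other member. These are descriptions over 5 tumors that share libraries and scaling, and no test was made.

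Partners, regulators and targets were taken from 10 lists with 73 genes, all of which passed the filter. None was called by edgeR (0 of 73, beside 0.182% of all genes), 4 were under an unadjusted p of 0.05 (*Mlxipl*, *Ccnd2*, *Cdc25a* and *Cdkn2b*, beside 10.6%), and DESeq2 on tumor sums called 2, *Ccnd2* and *Cdkn2b*, beside 6.07% of all genes. The median log2 fold change over the 73 genes was -0.07, against -0.18 over all genes. Every dFLEx tumor was above both KP tumors in 12 of them and below both in 4, beside 13.7% and 11.7% of all genes with TMM scaling, and in 5 and 9 of them on library totals, beside 10.0% and 15.5% of all genes.

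Among partners, the MLX arm, which links the network to glucose sensing, had 1 of 3 genes under the unadjusted threshold. *Mlxipl*, which encodes ChREBP, was at 2.21, 10.2 and 6.16 CPM in the dFLEx tumors and at 1.25 and 1.87 CPM in the KP tumors, with a log2 fold change of 1.99 (SE 0.84) and an edgeR adjusted p of 0.459. On library totals *Mlxipl* overlapped between the groups, at 1.88 CPM in dFLEx tumor 170019 and 2.24 CPM in KP tumor 3802. *Mlx*, the dimer partner of ChREBP, had the lowest log2 fold change of the arm at -0.82. The 6 corepressor genes used by MXD proteins overlapped between groups without exception, from -0.79 for *Sap30* to 0.56 for *Sin3a*. In the 10 genes of the MGA complex, log2 fold changes lay between -0.61 for *L3mbtl2* and 0.99 for *Ring1*, and *Rnf2* and *Ring1*, the ubiquitin ligase subunits, were above the KP range in every dFLEx tumor (2 of 10, beside 13.7% of all genes). On library totals *Rnf2* overlapped, at 43.6 CPM in dFLEx tumor 170024 and 44.5 CPM in KP tumor 3800. The 8 coactivators and partners ran from -0.52 for the acetyltransferase gene *Kat2a* to 0.61 for *Ruvbl2*. Of 10 genes for MYC protein turnover, the ubiquitin ligase gene *Huwe1* had the lowest value at -1.12 (SE 1.34), with a level from 16.4 to 404 CPM within KP alone, and the kinase gene *Pim1* the highest at 1.05 (SE 0.55). No gene of these 5 lists passed the adjusted test.

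Established MYC targets lay on both sides of 0, and none of them passed the adjusted edgeR test. For the 12 nucleolar and ribosome genes the median log2 fold change was -0.25, from -1.21 for the helicase gene *Ddx21* to 0.52 for *Pa2g4*, with 5 above 0 and 7 below. The 10 metabolic genes had a median of -0.35, from -0.75 for *Nme1* to 0.90 for *Ldha*, the lactate dehydrogenase gene, with 3 above 0 and 7 below. Neither list held a gene under the unadjusted threshold. The 8 cell cycle and other targets had a median of 0.14, from -0.52 for the chaperonin gene *Hspd1* upward, and held 2 such genes, *Ccnd2* and *Cdc25a*.

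*Ccnd2*, which encodes cyclin D2, had the largest log2 fold change of the 10 lists. Its level was 2153, 2416 and 3051 CPM in dFLEx tumors 170019, 170024 and 170025, against 227 and 213 CPM in KP tumors 3800 and 3802. The groups lay far apart with a narrow spread in each. The fitted log2 fold change was 3.53 (SE 0.58), with an adjusted p of 0.0784 in edgeR and of 9.63e-06 in DESeq2 on tumor sums. *Cdc25a*, a phosphatase gene of the cell cycle, was between 60.5 and 103 CPM in dFLEx and between 21.1 and 25.4 CPM in KP, with a log2 fold change of 1.76 (SE 0.59) and an edgeR adjusted p of 0.317. *Ccnd2* is also among the target genes the study names for CIC::DUX4, as is *Myc*, so the target list is not independent of the fusion.

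Genes that MYC is known to repress were also uneven. *Cdkn2b*, which encodes the cyclin-dependent kinase inhibitor p15, was at 27.0, 20.8 and 15.1 CPM in dFLEx tumors 170019, 170024 and 170025, against 288 and 96.0 CPM in KP tumors 3800 and 3802. Both KP tumors were above all dFLEx tumors. The log2 fold change was -3.19 (SE 0.66), with an adjusted p of 0.120 in edgeR and of 0.000656 in DESeq2 on tumor sums, and it was -2.03 without KP tumor 3800. *Gadd45a* was likewise lower in every dFLEx tumor, which makes 2 of 5 genes of this list, beside 11.7% of all genes. The log2 fold change of *Gadd45a* was -1.60 (SE 0.69), with an edgeR adjusted p of 0.476. The other 3 genes overlapped between groups, and *Cdkn1b* had the highest log2 fold change of the list at 0.64. That of *Cdkn1a* was 0.02 (SE 0.52). Both *Gadd45a* and *Cdkn1a* are known p53 targets, and p53 status differs between the models by genotype, so that it cannot be told apart from the other differences.

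**Figure D5:**
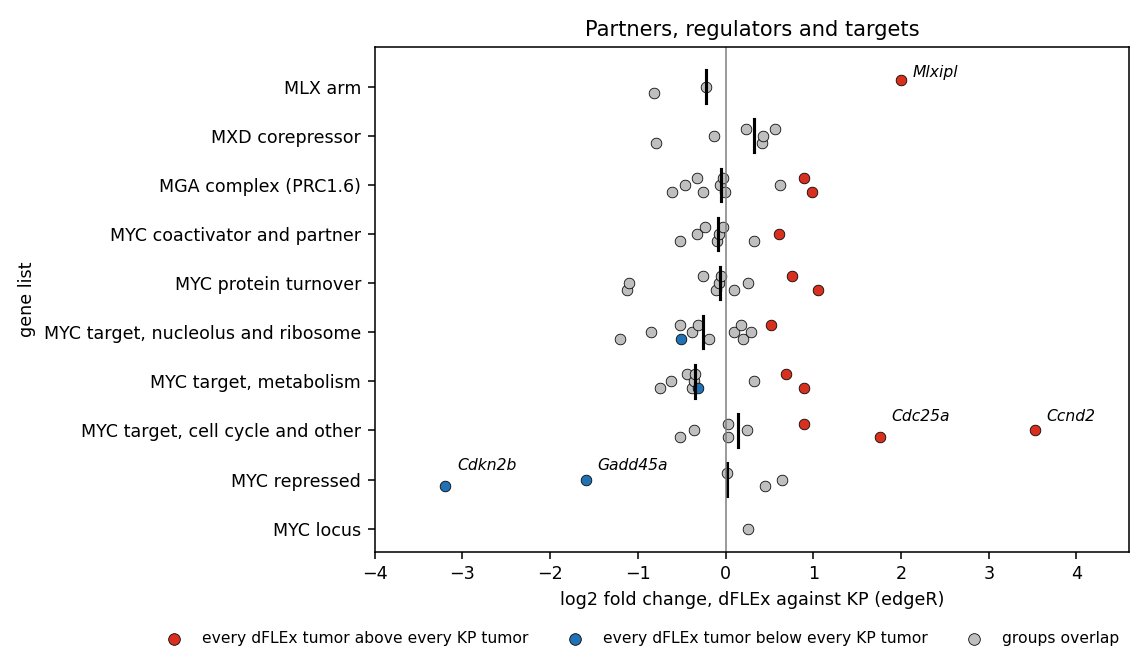
Log2 fold change, dFLEx against KP (horizontal axis), of 73 genes in 10 lists of partners, regulators and targets, 1 point per gene with the list median as a vertical bar. Red points are genes higher in every dFLEx tumor (12), blue points genes lower in every dFLEx tumor (4), both with TMM scaling, and *Ccnd2* (3.53) and *Cdkn2b* (-3.19) lie farthest from 0.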

How the data were processed

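Bulk RNA-seq of 5 mouse sarcomas was analysed: 6 libraries of 3 dFLEx tumors and 3 libraries of 2 KP tumors. A second library labelled for KP tumor 3802 was not analysed here. The authors trimmed reads with Trimmomatic (0.39), aligned them with STAR (2.7.10a) to mm39 plus a construct contig, and deposited raw counts per gene from featureCounts (Subread 2.0.3); the deposited counts were made without strand, leaving out reads with several alignments or over several genes, and with each mate of a pair counted as a read. Gene lengths in the same table are the deposited counted bases. Because each mate was counted, the Wilson intervals are narrower than the true counting error, and they leave out variation between tumors. Library totals ran from 20503474 to 46302223. Symbols came from GENCODE M39.

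Duplicates were summed per tumor, since the study states that the RNA was divided into duplicates before library preparation. Genes were filtered with filterByExpr, scaled by TMM and compared with edgeR (4.0.16) glmQLFit and glmQLFTest, with Benjamini-Hochberg adjustment at 0.05. SE is the absolute log2 fold change over the square root of F. The script was tested on simulated data in which every gene had the same variability. That run checked the code and does not show what edgeR recovers at the variability of these tumors. Tumors carry separate numbers in the labels, and nothing more is said of separate animals. The edgeR p-values set the group difference against variation between these tumors, which edgeR estimates with information shared across genes. DESeq2 (1.42.0), limma (3.58.1) and the other alternatives are given at the end. CPM per kilobase used the deposited lengths. The 10 genes and all lists were chosen with earlier results of these data known. Named genes were the 10 members, the highest and lowest log2 fold change of each list, genes with an adjusted p under 0.05, and for each Myc family gene the 3 genes nearest in pattern; other genes were named after their values were seen. An allele of the KP genotype is not reported here.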

Additional observations from a re-analysis of the deposited data

How the results depend on the processing

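The number of genes called in edgeR, 45 of 24743, depended strongly on the processing. It was 3344 with the 9 libraries taken as independent in edgeR and 4815 in DESeq2, 1388 with DESeq2 on tumor sums, 543 with limma-voom and the tumor as a random effect, 880 with no filter, and 80 when genes needed a mean of 1 CPM. With 1 tumor left out it ran from 0, without dFLEx tumor 170019 or 170024, to 414, without KP tumor 3802; it was 9 without 170025 and 8 without 3800. At an unadjusted p of 0.05 these edgeR fits held from 1414 to 3758 genes. A KP arm left with 1 tumor was assumed to vary like the other group. The duplicate numbers did not pair the libraries (correlations of deviations from -0.03 to 0.11). A replicate block on them gave 2476 of 19538 genes tested, 1 of 10 members and 3 of 73 list genes.

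Members called rose from 0 to 1 of 10 with independent libraries in edgeR, DESeq2 on tumor sums and no filter (*Mycn* each time, block included). They rose to 2 of 10 with independent libraries in DESeq2 (*Mycn* and *Mxd3*). The counts over all genes tested in the same fits follow and apply to members too. Of 73 list genes, 8 were called with independent libraries in edgeR, beside 3344 of 19538 genes tested. In DESeq2 with independent libraries 15 were called, beside 4815 of 24560. DESeq2 on tumor sums called 2, beside 1388 of 22867, and limma-voom called 3, beside 543 of 19538. With no filter 2 were called, beside 880 of 44382, and with any dFLEx tumor left out 0 were called. The place of *Mycn* among members per kilobase in dFLEx was 8, and 7 to 9 with a tumor left out. Except for what independent libraries do by construction, which is to count 1 RNA more than once, the cause of these shifts was not tested.

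Over 18 alternatives the direction held for *Mycn*, *Mycl*, *Mxd1*, *Mxd3*, *Mxd4* and *Mxi1*. *Myc* turned to -0.16 (independent libraries, edgeR), -0.17 (block), -0.19 (independent libraries, DESeq2), -0.15 (library totals), -0.00098 (upper quartile) and -0.0055 (a mean of 1 CPM), and ran from -0.50 to 1.27 with a tumor left out. *Mga* turned to -0.11, -0.12 and -0.14 in the same library fits, -0.024 with limma-voom and -0.037 with library totals, and ran from -0.97 to 1.57 with a tumor left out. *Max* (-0.50 to 0.52) and *Mnt* (-0.35 to 2.02) turned only with a tumor left out. Adjusted p for *Mycn* ran from 2.9e-06, with independent libraries in DESeq2, to 0.554, in edgeR without dFLEx tumor 170024. With counts summed per tumor the lowest was 0.00605, in DESeq2. Library totals in place of TMM moved the median of all genes from -0.18 to -0.47. Subtraction of the receptor-gene background was added after the data were seen and changed no member's direction or call.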
